A study of Mus musculus with 74 samples.

Results

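The genes described are the cytokine gene Tnf, its receptor genes Tnfrsf1a and Tnfrsf1b, the feedback genes Nfkbia, Tnfaip3 and Nfkbiz, and the NF-kB subunit genes Nfkb1, Nfkb2, Rel and Relb. They were taken by symbol, and all 10 were found among the 23297 features that carry a gene symbol. RNA was sequenced from cells selected with anti-CD11b magnetic beads, which bind neutrophils and monocytes as well as microglia and macrophages, from spinal cords (labelled microglia) and sciatic nerves (labelled peripheral macrophages) of female mice, in 74 libraries. Disease mice carry mutant human SOD1-G93A on a C57BL/6J background, a transgenic model of amyotrophic lateral sclerosis. The cord libraries of G93A mice are 4 pre-symptomatic (mean age 50.8 days), 5 at onset (105 days), 4 early symptomatic (152.6 days) and 4 end-stage ones (169.4 days). Control cords came from mice carrying a wildtype human SOD1 transgene, called WT, with 4 libraries of mean age 107.3 days, near onset, and 4 of 165.4 days, near end stage. C57BL/6J mice without a transgene, called B6, gave 4 libraries each at 109.8 and 165.6 days. The nerve libraries of G93A mice are 3 pre-symptomatic, 3 at onset, 4 early symptomatic and 4 end-stage ones. For 4 further nerve libraries of end-stage age, the description reads WT while strain and title read G93A. Grafted animals are G93A mice given marrow of G93A or WT donors at onset and sampled when early symptomatic or at end stage. Each combination of donor, stage and tissue has 3 libraries, but nerve with WT marrow in early symptoms has 2. How many cells of those libraries came from the donor is not stated. No control group matches the pre-symptomatic age, so stage and age cannot be told apart in comparisons with it. Each cord library is 1 mouse, and each pre-symptomatic nerve library pooled the nerves of 2 mice.

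TNF is made as a membrane protein, shed by the protease ADAM17 and bound by the receptors TNFR1 (Tnfrsf1a), present on most cells, and TNFR2 (Tnfrsf1b), found mostly on immune and endothelial cells. Receptor signalling frees NF-kB dimers from the inhibitor IkB-alpha (Nfkbia), and NF-kB then switches on genes that include its own brakes, IkB-alpha and the ubiquitin-editing enzyme A20 (Tnfaip3). Microglia are a main source of TNF in the spinal cord.

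Sequences before the gene starts are shown because NF-kB acts on several of these genes themselves. RefSeq promoters (GRCm38.p6) were matched for 7 members, and Nfkb1, Nfkbiz and Relb had no entry. The κB consensus was searched on both strands in the 250 bases before each start, and overlapping matches count as one stretch. Nfkbia, Tnfaip3, Rel and Nfkb2 held a match, in 6 of 10 entries, against 7.25% of all 32851 promoters of that length. Capitals below mark the matches, and each stretch is given 5′ to 3′ on the strand of its gene. For Nfkb2 only 30 bases around the first match are shown, and its further matches, in that entry and in its other entries, are not. Tnf is shown beside them as the ligand gene, with no match in this window. A match is a description of letters and not a binding site.
Nfkbia, chr12:55492648-55492897, minus strand: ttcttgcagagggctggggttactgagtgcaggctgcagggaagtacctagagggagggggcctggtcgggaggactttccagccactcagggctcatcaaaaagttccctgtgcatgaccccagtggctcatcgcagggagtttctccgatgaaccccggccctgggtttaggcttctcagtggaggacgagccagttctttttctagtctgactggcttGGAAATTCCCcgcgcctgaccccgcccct
Tnfaip3, chr10:19015411-19015547, minus strand: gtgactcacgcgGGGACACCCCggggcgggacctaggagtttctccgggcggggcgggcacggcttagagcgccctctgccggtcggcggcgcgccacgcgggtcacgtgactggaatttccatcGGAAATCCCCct
Rel, chr11:23770971-23771219, minus strand: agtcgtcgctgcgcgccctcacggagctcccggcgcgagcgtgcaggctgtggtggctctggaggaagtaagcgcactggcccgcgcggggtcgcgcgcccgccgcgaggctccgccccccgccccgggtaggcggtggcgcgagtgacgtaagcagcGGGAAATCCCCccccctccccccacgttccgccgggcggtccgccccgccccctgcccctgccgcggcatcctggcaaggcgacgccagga
Nfkb2, chr19:46304688-46304717, plus strand: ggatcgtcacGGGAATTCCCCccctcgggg
Tnf, chr17:35202008-35202257, minus strand: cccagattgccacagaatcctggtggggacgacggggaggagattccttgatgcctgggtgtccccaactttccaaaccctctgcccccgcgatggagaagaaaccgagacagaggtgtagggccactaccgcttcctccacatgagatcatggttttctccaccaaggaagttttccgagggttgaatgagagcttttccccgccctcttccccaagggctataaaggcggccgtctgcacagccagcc

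Before symptoms, 6 oligodendrocyte markers summed to 27767 to 32332 FPKM (fragments scaled by transcript length and by the number mapped) in cord libraries, above the 1338 to 7021 FPKM of 8 microglia markers, so these values go against the microglia label and the libraries are called cord libraries below. At end stage the oligodendrocyte sum was 1830 to 11223 FPKM and the microglia sum 2763 to 7674 FPKM. The 10 neutrophil markers summed to 41.9 to 398 FPKM before symptoms, but to 71388 FPKM in onset replicate 5, 52177 in end-stage replicate 4, and 81675 and 42767 in WT replicates 1 and 2 at the age of end stage. In nerve libraries of non-grafted mice the neutrophil sum was 76360 to 214343 FPKM and the sum of 8 macrophage markers 168 to 1016 FPKM, so the values go against their macrophage label, and they are called nerve libraries below. In bulk samples, fewer cells of a type and less RNA per cell cannot be told apart.

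In cord libraries of G93A mice, 8 of the 10 genes were higher at end stage than before symptoms, and none was lower. The called genes were the ligand, both receptors, all 3 feedback genes, Nfkb2 and Relb. Of all 11750 genes tested, 55.9% were called in this comparison, 24.8% higher and 31.1% lower, so calls were common, and 3 of 4 genes shared by myeloid cells were called higher too (median 1.93). The median difference of the 10 genes was 1.54 on the log2(FPKM + 1) scale, which understates changes of low genes, against 0.03 for all genes tested. Differences below are on that scale with SE, and p-values are from limma with Benjamini-Hochberg adjustment over all genes tested, called under 0.05. Against the age-matched WT mice at end stage, none of the 10 was called.

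Tnf (chr17:35199367-35202008 on mm10, as for the positions that follow) was at 0.45, 0.04, 0.98 and 0.62 FPKM in the 4 pre-symptomatic libraries. It was at 0.35, 6.31, 6.07, 0.53 and 4.65 FPKM at onset, and at 2.06, 10.45, 4.22 and 4.43 FPKM in early symptoms. At end stage it was at 10.32, 7.10, 5.67 and 6.73 FPKM. All end-stage libraries lay above all pre-symptomatic ones, as did the early symptomatic ones, while onset replicates 1 and 4 lay within the pre-symptomatic range. Tnf rose by 2.48 ± 0.45 to end stage (limma adjusted p = 0.000221), by 1.92 ± 0.45 to early symptoms (adjusted p = 0.00382) and by 1.28 ± 0.43 to onset (adjusted p = 0.0398). Onset replicates 1 and 4 also had oligodendrocyte sums of 31813 and 25428 FPKM, within or just below the range before symptoms, while the other 3 were at 818 to 2911 FPKM. The part of this split in the onset differences was not tested.

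The receptors stood far above their ligand per unit length. Tnfrsf1a (chr6:125349723-125362484), whose protein carries a death domain, was at 10.73, 11.73, 18.81 and 27.71 FPKM before symptoms. At end stage its values were 56.38, 57.25, 52.48 and 74.55 FPKM, apart from every pre-symptomatic library. Tnfrsf1a rose by 1.83 ± 0.53 (adjusted p = 0.0056). Tnfrsf1b (chr4:145212368-145246871), whose protein lacks one, was at 13.65, 12.23, 34.79 and 52.92 FPKM before symptoms and at 64.20, 71.18, 68.12 and 59.33 FPKM at end stage. The groups did not overlap, but pre-symptomatic replicate 4 came near the lowest end-stage value. Its rise of 1.43 ± 0.59 (adjusted p = 0.0403) had the highest adjusted p of the 8 calls. The call was lost without the libraries over 10000 FPKM of the neutrophil gene S100a8 (adjusted p = 0.0574), which left the other 7 called, and without any 1 of pre-symptomatic replicates 1 and 2 or end-stage replicates 1 to 4 (adjusted p 0.0533 to 0.137).

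Among the feedback genes, Tnfaip3 (chr10:19000913-19015410) was at 1.74, 1.35, 4.23 and 6.73 FPKM before symptoms and at 16.98, 18.23, 17.07 and 8.87 FPKM at end stage. Replicate 4 was the low end-stage library and still lay above all pre-symptomatic ones. Tnfaip3 rose by 1.97 ± 0.51 (adjusted p = 0.0027). Nfkbia (chr12:55489409-55492647), the highest of the 10 genes by mean FPKM in every non-grafted cord group, was at 45.48, 57.43, 53.99 and 66.76 FPKM before symptoms and at 94.15, 112.88, 116.45 and 155.74 FPKM at end stage. The groups did not overlap, and Nfkbia rose by 1.08 ± 0.33 (adjusted p = 0.00789). Nfkbiz (chr16:55811375-55838899), which encodes a nuclear IkB protein that helps switch on secondary NF-kB targets, was at 0.91, 1.13, 1.46 and 0.96 FPKM before symptoms and at 5.92, 4.06, 6.63 and 4.19 FPKM at end stage. The lowest end-stage library stood well clear of the highest pre-symptomatic one, and Nfkbiz rose by 1.54 ± 0.36 (adjusted p = 0.00147).

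Of the subunit genes, Nfkb2 and Relb of the non-canonical arm were called and Nfkb1 and Rel were not, and the difference between them was not tested. Nfkb2 (chr19:46304319-46312385), which encodes the p100 precursor of the non-canonical subunit p52, was at 2.94, 2.08, 3.62 and 3.52 FPKM before symptoms and at 15.24, 16.17, 17.62 and 11.67 FPKM at end stage. Relb (chr7:19606217-19629439), the partner of p52, was at 3.92, 3.50, 6.62 and 6.60 FPKM and then at 15.55, 21.47, 17.24 and 12.04 FPKM. Neither gene overlapped between the stages, and they rose by 2.01 ± 0.40 (adjusted p = 0.000441) and 1.53 ± 0.39 (adjusted p = 0.00259). Nfkb1 (chr3:135584657-135691547), the gene of the p105 precursor of p50, was at 3.07, 3.72, 13.48 and 24.07 FPKM before symptoms and at 16.50, 18.55, 18.18 and 10.78 FPKM at end stage, so the groups overlapped. Rel (chr11:23741517-23770970), which encodes the c-Rel subunit of lymphoid and myeloid cells, was at 0.92, 1.29, 2.70 and 3.64 FPKM and then at 3.09, 3.04, 3.17 and 2.29 FPKM, also overlapping. Their differences of 0.87 ± 0.56 (adjusted p = 0.187) and 0.40 ± 0.38 (adjusted p = 0.37) did not pass, although Nfkb1 did without pre-symptomatic replicate 4 (1.35, adjusted p = 0.044). Nfkb2 shares its locus on the other strand with 4833438C02Rik and Psd, Nfkb1 with Ube2d3, and Tnf and Rel each with 1 unnamed feature, and no source states whether counting used strand.

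**Figure D1:**
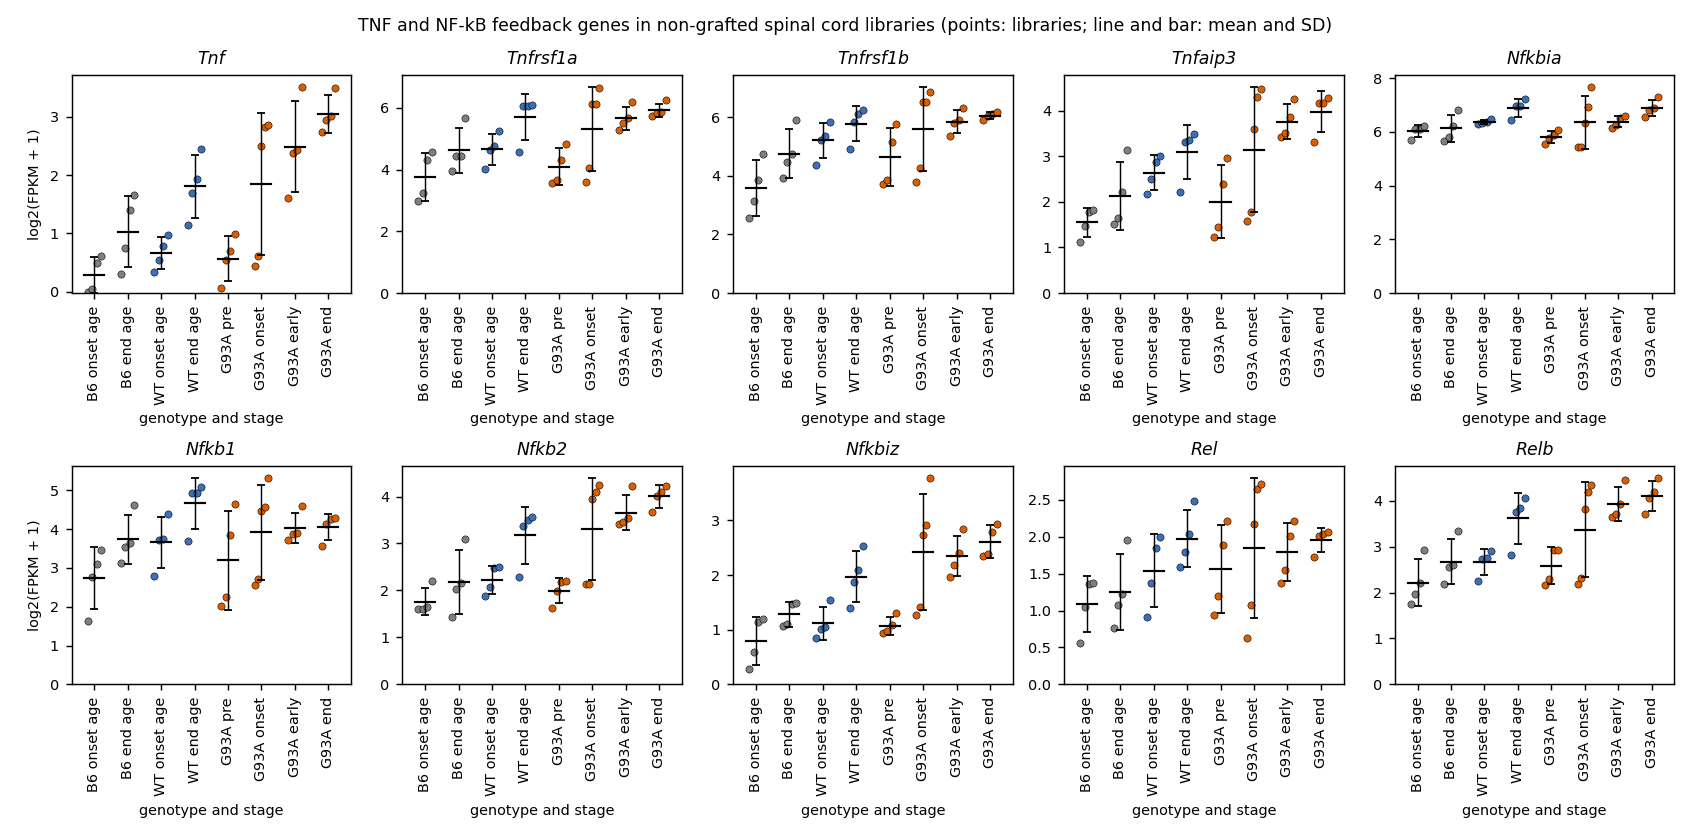
Level of each gene in every non-grafted cord library, as log2(FPKM + 1), by group, with each point 1 library and bars for the mean and SD. At onset the G93A points fall into a low pair (replicates 1 and 4) and a high trio, and end-stage Tnf lies at 5.67 to 10.32 FPKM, above every control library.

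At earlier stages fewer members were called. In early symptoms 6 were higher than before symptoms, the same 8 less Tnfrsf1b and Nfkbia, where 35.2% of all genes were called, 19.2% higher (all shares are of genes tested), and 2 were called without early symptomatic replicate 2. With terms for the oligodendrocyte and neutrophil scores 2 were called, Tnf and Nfkb2, both higher, where 9.58% of all genes were called higher. Relative to 4 myeloid genes (described below) 9 of the 10 lay below 0 and 4 were called lower: Tnfrsf1b (adjusted p = 0.0261), Nfkbia (adjusted p = 0.0263), Nfkb1 (adjusted p = 0.0134) and Rel (adjusted p = 0.011). On that scale 80.2% of all genes were called lower. At onset 3 were higher (Tnf, Nfkb2 and Nfkbiz), where 25.4% were called, 10.3% higher. The onset count was 0 without any 1 of pre-symptomatic replicates 1 to 3 or onset replicates 2, 3 and 5. It was 5 without pre-symptomatic replicate 4, 8 without onset replicate 1 and 7 without onset replicate 4. Between onset and early symptoms 0 members were called (0.843% of all genes), and 0 had an unadjusted p under 0.05, beside 1488 of all 11750 genes. With terms for marker scores 4 were called higher there, where 11% of all genes were higher. Between early symptoms and end stage 0 members were called as well (0% of all genes), and 0 had an unadjusted p under 0.05, beside 339 of all 11750 genes.

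Comparing G93A with age-matched WT asks what goes beyond a human SOD1 transgene and age. At the age of end stage, Tnf was at 4.48, 2.23, 1.2 and 2.84 FPKM in WT libraries, all below the end-stage G93A libraries. The difference was 1.25 ± 0.45 (adjusted p = 0.0908), and 7% of all genes were called. Nfkb2 was at 9.31, 10.36, 3.85 and 10.83 FPKM in WT, also below every G93A library, with a difference of 0.82 ± 0.40 (adjusted p = 0.203). These were the 2 members whose groups did not overlap and the 2 at an unadjusted p under 0.05, beside 2867 of all 11750 genes at such a p. How many of all genes did not overlap was not counted. The other 8 differences ran down to that of Nfkb1, at -0.60 ± 0.56 (adjusted p = 0.537), whose WT libraries were at 29.22, 29.58, 11.92 and 33.18 FPKM. WT replicates 1 and 2 carried the high neutrophil sums given above, and the part of that in these differences was not tested. With library quality weights, Tnf (1.16), Nfkb2 (0.67), Tnfaip3 (0.87) and Nfkbiz (0.58) were called, and with terms for the oligodendrocyte and neutrophil scores only Tnf was (0.75, adjusted p = 0.0201). Both fits called more of all genes than the 7% above. The weights gave 5714 of 11750 (1526 higher) and the terms 2048 (644 higher).

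At the age of onset 1 member, Nfkbiz, was higher in G93A than in WT (1.30 ± 0.34, adjusted p = 0.0482), where 4.31% of all genes were called, 1.04% higher. Its G93A values were 1.42, 6.50, 5.62, 1.68 and 12.64 FPKM and its WT values 1.07, 1.93, 1.03 and 0.81 FPKM. Onset replicates 1 and 4 again lay at the level of WT, and the call was lost without any 1 WT library or onset replicate 2, 3 or 5, while 4 members were called without onset replicate 1 or 4. Against B6 mice, 7 members were higher at onset, where 55.1% of all genes were called (29.4% higher), and 6 at end stage, where 46.2% were called (18.3% higher). The onset count was 4 without onset replicate 3, and 0 with terms for marker scores or with only the groups compared. The end-stage count was 2 with terms for marker scores, Tnf and Nfkb2, both higher, where 8.31% of all genes were called higher. The summed FPKM of 4 myeloid genes was 181 to 917 in B6 of the age of onset against 436 to 4030 in G93A at onset, and 539 to 2030 against 961 to 2074 at end stage. Relative to those genes all 10 members lay below 0 at onset against B6, and Nfkbia (-1.74, adjusted p = 0.00338), Nfkb1, Rel and Relb were called lower, where 89.8% of all genes were. At end stage 1 member was called on that scale, Nfkb1, lower (-1.02, adjusted p = 0.0141; 47.1% of all genes lower). Tnf was listed at 0 in B6 replicate 1 of the age of onset and at 0.03 to 0.52 FPKM in the others, and at 0.24 to 2.15 FPKM in B6 of the age of end stage. The difference for Tnf at end stage was 2.02 ± 0.45 (adjusted p = 0.00151). Between WT and B6, 0 members were called at either age (0% of all genes). At an unadjusted p under 0.05 were 2 members at the age of onset and 3 at that of end stage, beside 727 and 2421 of all 11750 genes. Between the ages 0 members were called within WT (0.128% of all genes, and 2 members without WT end replicate 3) and 0 within B6 (0.0681%). Unadjusted, 4 members passed within WT and 0 within B6, beside 3144 and 901 of all 11750 genes.

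By group mean, the 8 cord groups fell in much the same order for most members. Tnf ran from G93A end (7.46 ± 2.0 FPKM, SD, n = 4) and early symptoms over onset to WT and B6 of the age of end stage, then WT of the age of onset, pre-symptomatic G93A and B6 of the age of onset. Every neighbouring pair in that order overlapped. Nfkb1 was in another order, with WT of the age of end stage first, and the onset group led for Nfkbiz and Rel.

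Genes shared by myeloid cells moved with the 10 genes, and 3 of 4 were called higher at end stage than before symptoms. The median difference of Itgam, Ptprc, Csf1r and Aif1 from before symptoms was 1.32 (onset), 1.86 (early symptoms) and 1.93 (end stage), and their sum ran from 373 to 1622 FPKM before symptoms and from 961 to 2074 FPKM at end stage. Measured relative to these 4 genes, a scaling added after seeing the data that shifts the median of all genes to -1.76, Tnf was 0.69 higher at end stage than before symptoms (adjusted p = 0.112) and no member was called higher. On that scale Nfkb1 (-0.92, adjusted p = 0.0055) and Rel (-1.39, adjusted p = 0.00526) were lower, where 78.8% of all genes were, and the members' median was -0.26. With terms for the oligodendrocyte and neutrophil scores, Tnf alone of the 10 was called (0.96, adjusted p = 0.0122), where 6.48% of all genes were called higher. Against WT at end stage the myeloid genes differed by a median of 0.13, and Tnf was 1.15 higher relative to them (adjusted p = 0.312).

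**Figure D2:**
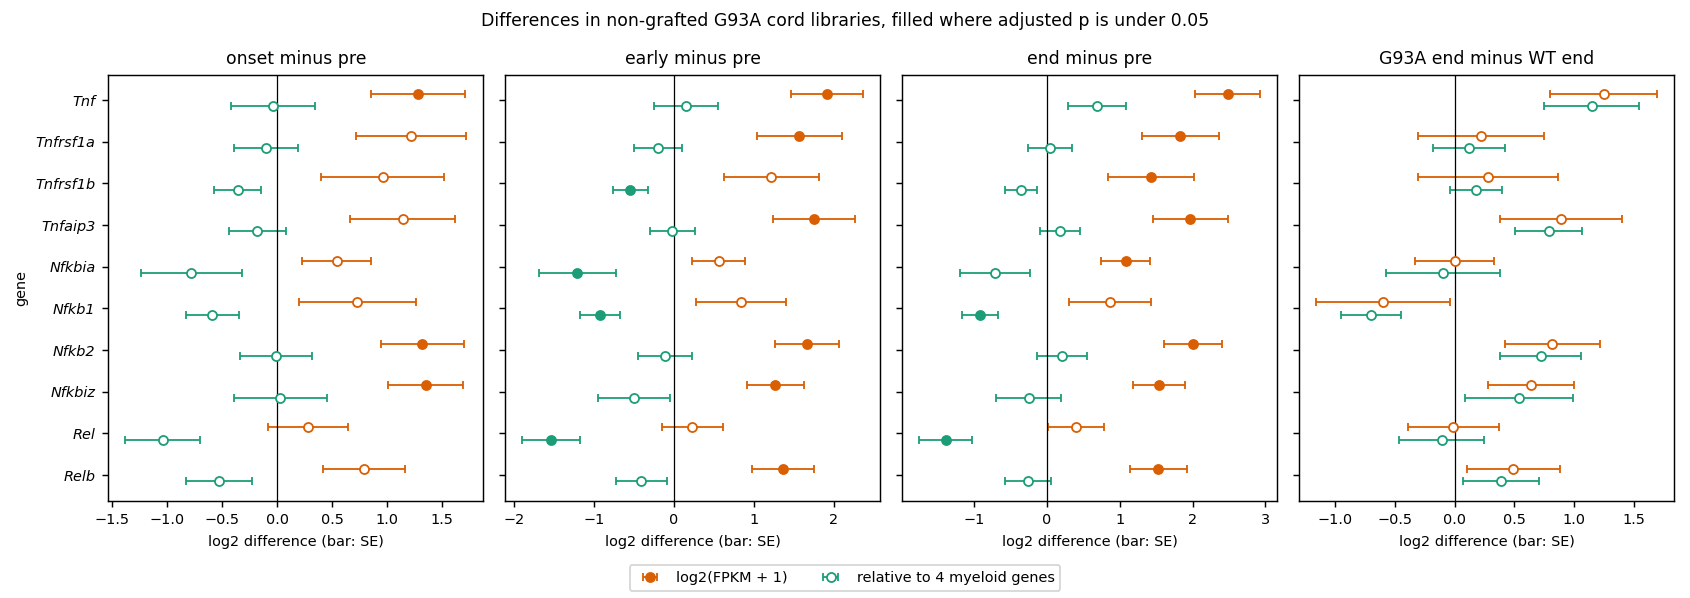
Difference of each gene between G93A groups and between G93A and WT at end stage, on the log2(FPKM + 1) scale with SE, as measured and relative to the 4 myeloid genes, with filled points for adjusted p under 0.05. Relative to the myeloid genes, Tnf remains 0.69 above 0 at end stage against before symptoms without a call. There 6 of the 10 genes lie below 0, of which Nfkb1 and Rel are called.

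**Figure D3:**
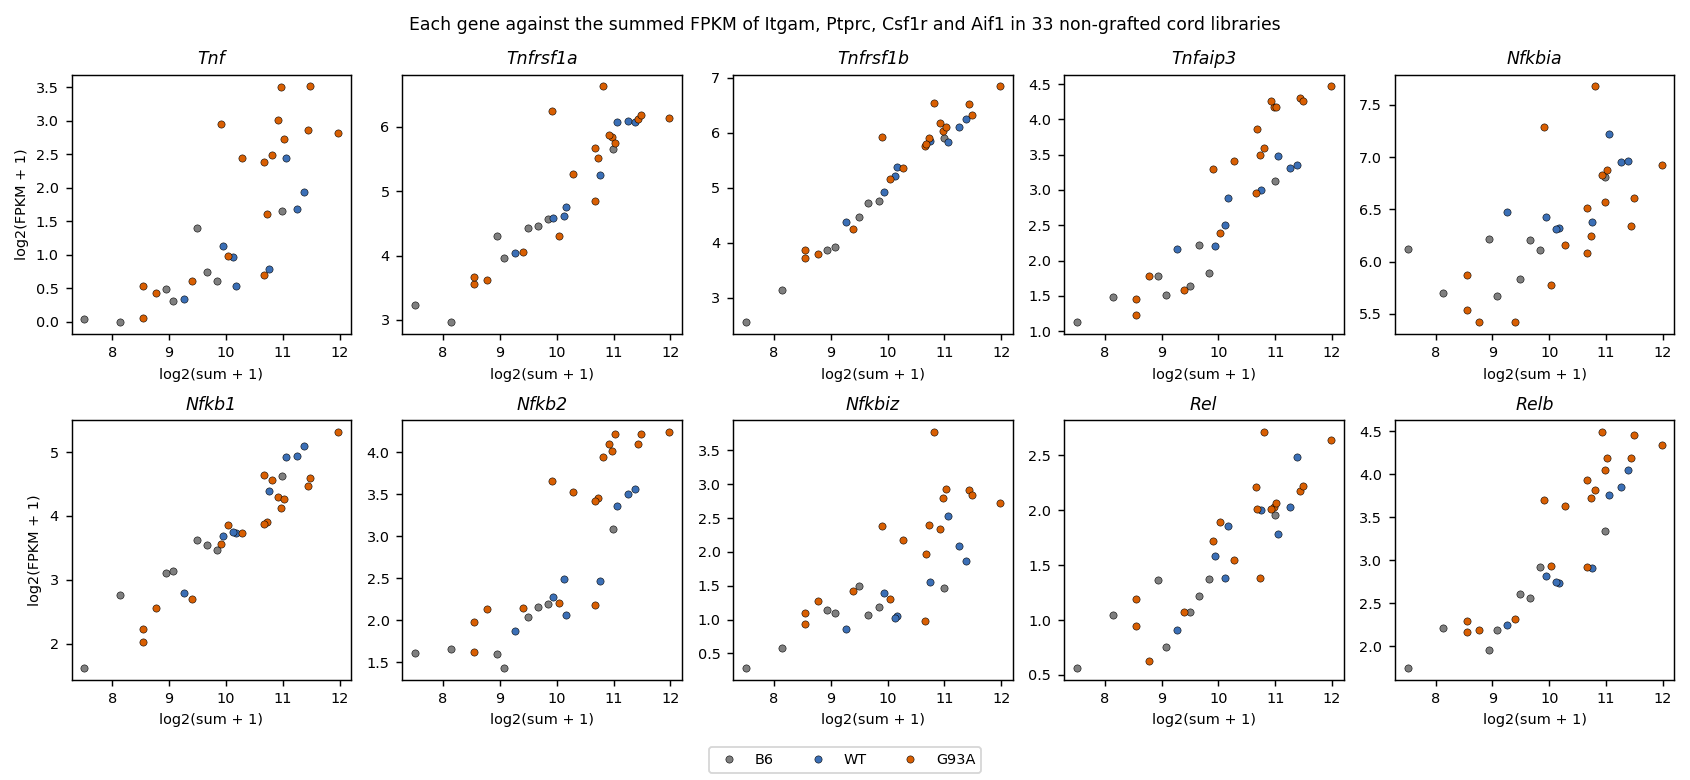
Level of each gene, as log2(FPKM + 1), against the summed FPKM of Itgam, Ptprc, Csf1r and Aif1, as log2(sum + 1), in 33 non-grafted cord libraries, with each point 1 library. Libraries with a low myeloid sum, such as 373 FPKM before symptoms, have low Tnf, at 0.45 and 0.04 FPKM in the pair at that sum.

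The 10 genes varied together over the cord libraries. Over the 33 libraries, Pearson's r between pairs of them ran from 0.673 to 0.971 with a median of 0.858, and these libraries share their cell content, so r is given as a description. Of 7815 other genes with a mean of at least 5 FPKM, the 3 most like Tnf were Atp6v0e (0.96), Sh3glb1 (0.959) and Ninj1 (0.956). The 3 most like Tnfrsf1b were Vav1 (0.989), Irf5 (0.988) and Inpp5d (0.985). Among those most like Tnfrsf1a were Rhog (0.986) and Ppp1r18 (0.984). For Tnfaip3 they were Man1c1 (0.979), Colgalt1 (0.977) and Mfsd11 (0.977), and for Nfkb2 Mapkapk2 (0.979), Glipr1 (0.975) and Gcnt2 (0.975). For Relb they were Creg1 (0.976), Nucb1 (0.976) and Cd200r1 (0.975), and for Nfkb1 Rab3il1 (0.98), Lpcat2 (0.979) and St3gal6 (0.979). Nfkbiz (Slc1a5 at 0.943), Rel (Akap8 at 0.934) and Nfkbia (Sqrdl at 0.915) had lower highest values.

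Other genes of the pathway were described from lists made from general knowledge. As measured, their counts stand beside 24.8% of all genes called higher and 31.1% lower, and a median of 0.03. At end stage against before symptoms, 8 of 15 genes of TNF shedding and proximal signalling were higher and 1 lower (median 0.94), including the sheddase Adam17 (1.54 ± 0.45), the ubiquitin ligase Birc3 (1.5 ± 0.48) and the kinase Ripk1 (1.41 ± 0.39). Among the IkB kinases and their activators, 2 of 9 were higher, Map3k8 by 2.08 ± 0.50 and Ikbkb by 0.60 ± 0.25, and 1 was lower, Traf3 by -0.88 ± 0.18, an adaptor that restrains the non-canonical arm (median 0.34), shares at or below those of all genes. Of 5 other NF-kB and IkB genes 4 were higher, with Bcl3 at 2.27 ± 0.47, Nfkbid at 1.87 ± 0.51 and Rela, the p65 subunit, at 1.17 ± 0.30 (median 1.17). Of 8 other negative feedback genes 7 were higher, with Ier3 at 2.34 ± 0.44, the mRNA decay factor Zfp36 at 2.00 ± 0.65 and Tnip2, an A20 partner, at 1.65 ± 0.44 (median 1.43). With terms for marker scores 0 of the 15, 0 of the 9, 1 of the 5 (Bcl3) and 2 of the 8 (Tnip1 and Ier3) were called higher, and relative to the myeloid genes none of the genes of these 4 lists was called higher while 7, 8, 1 and 1 were called lower. Of all genes, 6.48% were called higher and 8.89% lower with those terms. Relative to the myeloid genes 1.89% were called higher and 78.8% lower.

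Of 16 tested NF-kB target genes, 12 were higher at end stage and 1 lower (median 2.13), beside the same shares of all genes and the myeloid median of 1.93. The chemokine Ccl4 was at 447 ± 155 against 24.6 ± 11.4 FPKM (SD, n = 4 each), a difference of 4.24 ± 0.74, and Ccl3 (4.15 ± 0.62) and Ccl5 (3.53 ± 0.51) were close behind. Of 10 other ligands and receptors of the TNF superfamily 7 were higher, including Tnfsf8 (2.52 ± 0.48), Tnfrsf12a (2.26 ± 0.34) and Tnfsf9 (1.98 ± 0.40), with a median of 1.38. Of 8 immediate early genes 4 were higher, including Atf3 (4.33 ± 0.54), Egr2 (3.35 ± 0.44) and Egr1 (2.64 ± 0.33), with a median of 1.36. With terms for marker scores 5 of the 16 targets (Ccl2, Ccl3, Ccl4, Ccl5 and Cxcl10), 3 of the 10 superfamily genes and 3 of the 8 immediate early genes were called higher. Relative to the myeloid genes 6 targets were called higher and 3 lower, 0 superfamily genes higher and 3 lower, and 2 immediate early genes (Atf3 and Egr2) higher and 3 lower. Of all genes, 6.48% were higher with marker terms, and 1.89% were higher and 78.8% lower relative to the myeloid genes. Against WT at end stage, where 7% of all genes were called, the immediate early genes Atf3 (2.29 ± 0.54, adjusted p = 0.00995), Egr1 (1.85 ± 0.33, adjusted p = 0.00104) and Egr2 (1.85 ± 0.44, adjusted p = 0.0112) were higher and the cytokine gene Il6 lower (-1.29 ± 0.39, adjusted p = 0.0401). No other gene of these lists was called there as measured. With terms for marker scores Atf3, Egr1, Egr2, Bcl3, Ier3 and Ccl3 were called higher, and 1 target and 2 superfamily genes lower. Of all genes 5.48% were then called higher and 11.9% lower. Relative to the myeloid genes Atf3, Ccl3, Cd83 and Bcl2a1b were called higher and 1 superfamily gene lower (0.902% of all genes higher, 0.434% lower).

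In nerve libraries of non-grafted G93A mice no member passed the test between stages. Between end stage and before symptoms 0 of 10 were called, with a lowest adjusted p of 0.79, and 0.00975% of all 10260 genes were called. At an unadjusted p under 0.05 were 0 members and 671 of all genes. Onset and early symptoms against before symptoms, and end stage against early symptoms, also gave 0 calls of members (0% of all genes). In that order 1, 4 and 1 members had an unadjusted p under 0.05, beside 474, 535 and 334 of all 10260 genes. Tnf was at 9.22, 3.36 and 0 FPKM before symptoms, listed at 0 in the last, and at 4.53, 5.25, 4.09 and 4.90 FPKM at end stage. The end-stage values lay within the pre-symptomatic spread. Tnf differed by 0.68 ± 0.90 (adjusted p = 0.922) and Tnfaip3 by 1.18 ± 0.69 (adjusted p = 0.808).

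Libraries of 1 nerve group differed widely for the low genes. Rel was at 12.40, 0.01, 4.34 and 1.70 FPKM in the 4 end-stage libraries, and Relb at 1.53, 16.90, 0.01 and 3.14 FPKM in early symptoms. Tnfaip3 was at 3.52, 3.27 and 0.01 FPKM before symptoms and listed at 0 in onset replicate 1. By contrast Nfkbia stayed between 134.13 and 271.51 FPKM and Tnfrsf1a between 55.78 and 157.70 FPKM in the 14 G93A nerve libraries. In the 4 libraries described as WT, Tnf was at 8.56, 28.16, 0 and 8.37 FPKM and Nfkb2 at 18.54, 28.83, 23.34 and 27.11 FPKM. Nfkb2 was lower in every end-stage G93A library (11.34, 5.98, 8.83 and 13.08 FPKM), with a difference of -1.27 ± 0.38 (adjusted p = 0.513). In that comparison 0% of all genes were called, and 2 members had an unadjusted p under 0.05, beside 662 of all 10260 genes. Across the 18 nerve libraries, r between pairs of members ran from -0.444 to 0.595 with a median of 0.097, as a description. The genes most like Tnf there were Rsbn1l (0.85), Brd2 (0.828) and Uxt (0.817), of 6871 compared, and for Tnfrsf1a they were Fosl2 (0.908), Actg1 (0.826) and Mcl1 (0.824).

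Nerve and cord libraries differed in 5 members before symptoms and in 3 at end stage. Before symptoms all 5 were higher in nerve, where 54.7% of all 11773 genes were called (23.6% higher) and the all-gene median was -0.17. Tnfrsf1a was at 93.23, 55.78 and 75.60 FPKM in nerve, above all cord libraries (2.12 ± 0.48, adjusted p = 0.000272). Nfkbia was at 203.95, 134.13 and 143.58 FPKM, also apart from the cord (1.49 ± 0.31, adjusted p = 8.72e-05). Nfkbiz (2.01 ± 0.45, adjusted p = 0.000218), Nfkb2 (1.63 ± 0.42, adjusted p = 0.00112) and Relb (1.46 ± 0.56, adjusted p = 0.024) made up the 5. The Relb call was lost with a pseudocount of 0.1 (adjusted p = 0.0843), with median-ratio scaling (adjusted p = 0.0793) and without cord replicate 1 or 2 or nerve replicate 2 or 3.

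At onset Nfkbia and Tnfrsf1a were higher in nerve and Tnfaip3 lower (48.8% of all genes called, 15.3% higher and 33.6% lower), and in early symptoms Relb was lower too (50.6% called, 15.6% higher and 35% lower). The onset calls numbered 1 without nerve replicate 1. At end stage Nfkbia was higher by 0.83 ± 0.29 (adjusted p = 0.0202), with 248.52, 271.51, 161.90 and 179.17 FPKM in nerve. Tnfaip3 was lower by -1.37 ± 0.54 (adjusted p = 0.0423), with 4.82, 5.29, 5.09 and 5.28 FPKM in nerve, each below the lowest cord library at 8.87 FPKM. Relb was lower by -1.31 ± 0.52 (adjusted p = 0.0399), with 3.38, 10.83, 5.95 and 5.52 FPKM, again below the lowest cord library. At that stage 39.4% of all genes were called, 13.1% higher and 26.3% lower, and the 3 calls fell to 0 without replicate 1 of either tissue and to 1 without cord replicate 2 or 3 or nerve replicate 2, 3 or 4. Tnf did not overlap between the tissues, with cord above nerve, but the difference was -0.55 ± 0.63 (adjusted p = 0.512). Neutrophil markers were higher in nerve, 10 of 10 called at both stages, and microglia markers lower, 8 of 8. Their part in these differences was not tested. With a term for the neutrophil score 0 members were called before symptoms and 1 at end stage (Tnfaip3, lower). Calls of all 11773 genes fell as well, from 6434 to 1222 before symptoms and from 4636 to 1571 at end stage. The score went largely with tissue, so this fit can hardly tell score from tissue.

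The change from before symptoms to end stage was smaller in nerve than in cord for Nfkb2 (-2.25 ± 0.58, adjusted p = 0.00832), Relb (-2.77 ± 0.76, adjusted p = 0.0117) and Nfkbiz (-1.70 ± 0.61, adjusted p = 0.0451). This difference of differences was called for 19.8% of all genes, below 0 for 10.3%, was below 0 for all 10 members, and had a median of -1.41 over them against -0.18 over all genes. The call of Nfkbiz was lost without any 1 of 12 of the 15 libraries involved, and Tnf, at -1.80 ± 0.93 (adjusted p = 0.16), passed without nerve replicate 3 of the pre-symptomatic group (-2.72, adjusted p = 0.0423). Relative to the myeloid genes, no such difference of a member was called below 0 and 3 were called above 0 (Rel, Nfkbia and Nfkb1). The members' median was then 0.85, against 2.08 for all genes, of which 47.6% were called above 0 and 0.705% below.

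**Figure D4:**
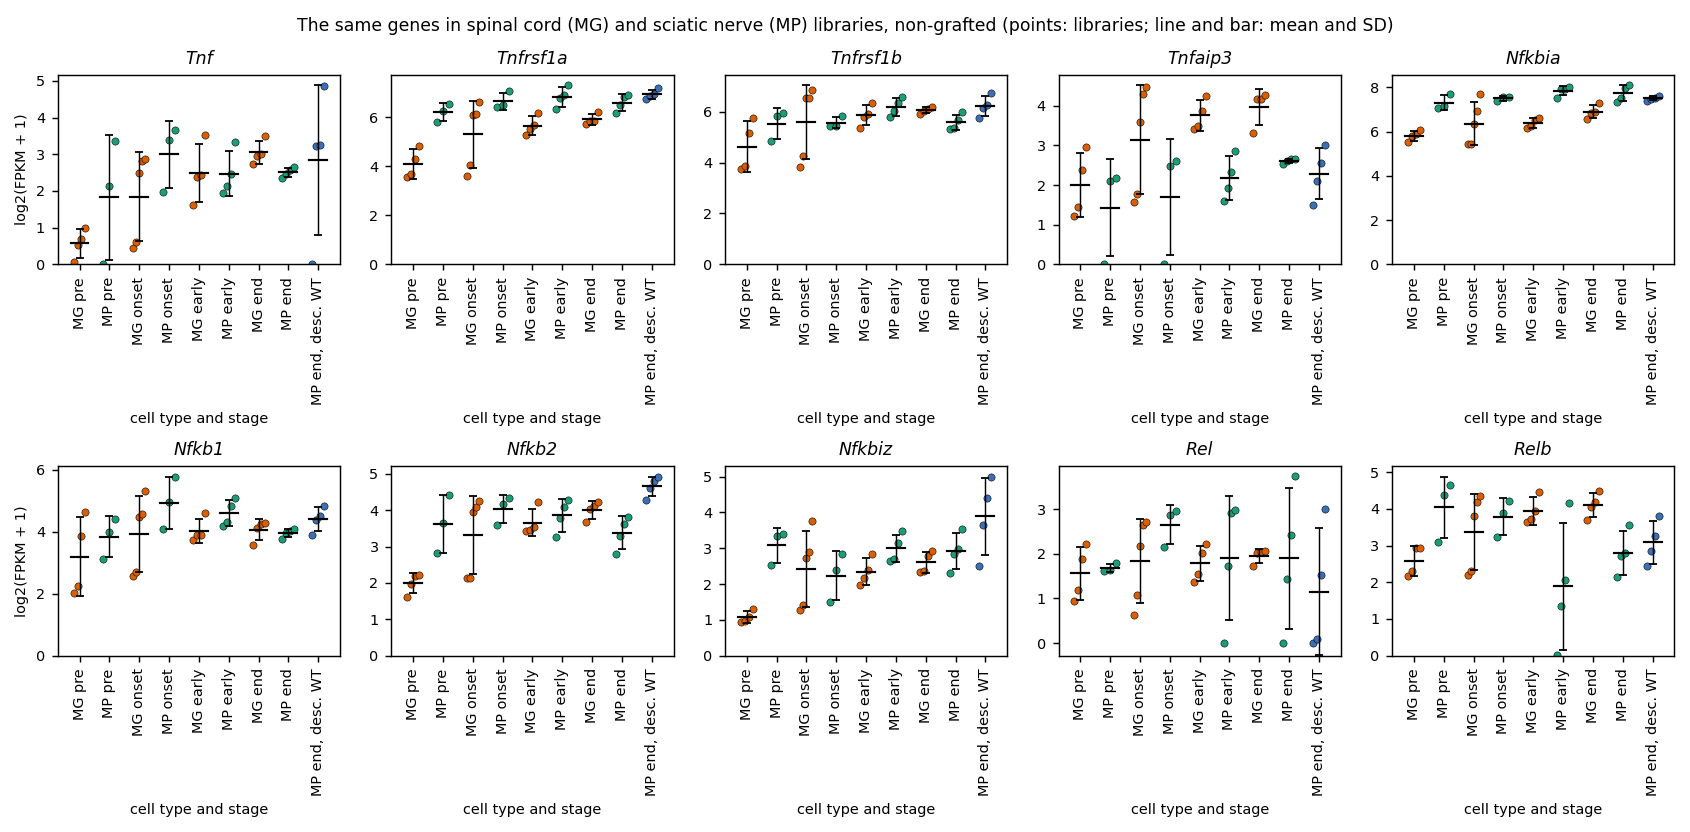
Level of each gene, as log2(FPKM + 1), in non-grafted G93A cord (MG) and nerve (MP) libraries by stage and in end-stage nerve libraries described as WT (desc. WT), with each point 1 library and bars for the mean and SD. Nfkb2 in nerve is at 6.09 to 20.28 FPKM before symptoms and 5.98 to 13.08 FPKM at end stage, while cord goes from 2.08 to 3.62 FPKM up to 11.67 to 17.62 FPKM.

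Within a library, the balance of the receptors was measured as log2 of Tnfrsf1b + 1 over Tnfrsf1a + 1, in FPKM. In cord libraries it was 0.53 ± 0.42 (SD, n = 4) before symptoms and 0.13 ± 0.32 (n = 4) at end stage, a difference of -0.40 (exact two-sided permutation test, p = 0.229). In nerve libraries it was -1.03 ± 0.17 at end stage (n = 4), so that Tnfrsf1a was the higher of the pair there. Nerve lay below cord by -1.16 at end stage (exact permutation p = 0.0286, the smallest that 4 against 4 allows) and by -1.38 at onset (exact permutation p = 0.0357, the smallest that 3 against 5 allows). Before symptoms nerve lay below cord by -1.22 and in early symptoms by -0.84 (exact permutation p = 0.114 for each). Adjusted over the 14 comparisons made, the end-stage and onset values had a p of 0.25 and no comparison passed. None of the 14 could have passed that adjustment, even with every exact permutation p at the smallest its libraries allow. In 6 of the 14 the unadjusted p cannot fall under 0.05 either (smallest 0.0571, 0.1 or 0.2). The lack of a call after adjustment thus says nothing either way.

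In grafted mice no member was called between marrow donors. Of 10 members, 0 were called between WT and G93A donors in cord libraries in early symptoms or at end stage (0% of all genes). In both 0 members had an unadjusted p under 0.05, beside 1229 and 53 of all 11143 genes. Nerve libraries also gave 0 calls at both stages (0% of all genes), with 0 and 1 members at an unadjusted p under 0.05, beside 245 and 1588 of all 10299 genes. The stages within a donor and the interaction of donor and stage gave 0 calls as well (0% of all genes in either tissue). At most 1 member had an unadjusted p under 0.05 in each. Of all genes, 95 to 1011 of 11143 did in cord and 435 to 912 of 10299 in nerve. With 2 or 3 libraries a group and SE of 0.31 to 1.11 for the donor differences on the log2 scale, smaller differences could not be seen.

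The lowest p of a member between donors was that of Relb in nerve libraries at end stage. It was at 0.27, 2.49 and 0.08 FPKM with a WT donor and at 4.20, 25.75 and 7.47 FPKM with a G93A donor. The groups did not overlap, and the difference was -2.65 ± 0.81, WT minus G93A donor (limma unadjusted p = 0.00626, adjusted p = 0.175). Nfkbiz did not overlap there either (-1.98 ± 0.99, adjusted p = 0.36). In early symptomatic nerve libraries Tnfrsf1b was lower and Nfkb2 higher in both WT-donor libraries than in every G93A-donor library. In early symptomatic cord libraries Tnfrsf1a, Tnfaip3, Nfkbiz and Relb did not overlap and were lower with a WT donor, and all 10 differences were below 0, from -0.91 to -0.28. Relative to the 4 myeloid genes only 1 of these 10 differences was below 0 (members' median 0.40, all genes 0.78). With terms for marker scores 3 of the 10 were below 0 (members' median 0.12, all genes 0.07). How many of all genes did not overlap was not counted. An exact permutation p cannot fall under 0.1 for 3 against 3 libraries or under 0.2 for 2 against 3, so lack of overlap says little here. Without WT-donor replicate 3 of that group Tnf went from -0.91 to -0.06 and Tnfrsf1b to 0.15. All 10 were also below 0 in cord at end stage, from -1.03 to -0.12, with every member overlapping and 0% of all genes called. There 10 were below 0 relative to the myeloid genes and 8 with the terms.

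Cord libraries of grafted mice carried Tnf at 10.04, 15.45 and 13.91 FPKM with a G93A donor and 10.94, 14.06 and 1.25 FPKM with a WT donor in early symptoms. At end stage these were 10.82, 15.87 and 38.18 FPKM and 17.01, 2.88 and 13.15 FPKM. The donor groups overlapped at both stages. Early symptomatic replicate 3 with a WT donor was the low library in that group for all members but Nfkbia, and its oligodendrocyte sum was 27975 FPKM against 670 to 7182 FPKM in the other early symptomatic cord libraries. Tnfaip3 was at 21.13, 22.46 and 59.84 FPKM at end stage with a G93A donor and at 46.44, 14.99 and 15.99 FPKM with a WT donor, and Nfkbia at 148.15, 163.70 and 478.32 FPKM and at 358.13, 81.52 and 118.42 FPKM. The same library of each group, replicate 3 with a G93A donor and replicate 1 with a WT donor, was highest for both inhibitors, for Tnf and for Rel. The difference between donors at end stage was -0.43 ± 0.50 for Tnfaip3 and -0.58 ± 0.51 for Nfkbia, WT minus G93A donor, each with a limma adjusted p of 1.

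Between grafted nerve and cord libraries the inhibitors differed in direction. At end stage with a G93A donor, Tnfrsf1a (1.02 ± 0.31, adjusted p = 0.0179) and Nfkbia (1.63 ± 0.58, adjusted p = 0.0393) were higher in nerve, and Tnfaip3 (-2.20 ± 0.81, adjusted p = 0.0474) and Relb (-1.90 ± 0.59, adjusted p = 0.0203) lower, where 27.9% of all 11248 genes were called, 14.9% higher and 13% lower. Nfkbia reached 600.45, 366.62 and 1583.39 FPKM in those nerve libraries, the last being the highest value of any member in the 74 libraries, while Tnfaip3 was at 5.78, 8.40 and 4.14 FPKM. Leaving out any 1 of the 6 libraries left 0 to 2 of these 4 calls. In early symptoms Relb was the 1 member called with a G93A donor (-1.91 ± 0.59, adjusted p = 0.0269), where 20.7% of all genes were called, 10.3% lower. That call was lost without any 1 of 5 of the 6 libraries. With a WT donor 0 members were called then (34.2% of all genes), and 1 had an unadjusted p under 0.05, beside 5008 of all 11248 genes. At end stage with a WT donor, Relb was at 0.27, 2.49 and 0.08 FPKM in nerve against 43.41, 22.52 and 30.70 FPKM in cord (-4.25 ± 0.59, adjusted p = 3.44e-05), and Nfkb2 was lower by -0.90 ± 0.34 (adjusted p = 0.0495; 31.7% called, 18% lower). The Nfkb2 call was lost without any 1 of cord replicates 1 and 3 and nerve replicates 2 and 3 (adjusted p 0.103 to 0.162). The number of members called was 4 without cord replicate 2 or nerve replicate 1, and 1 without nerve replicate 2 or 3 or with the replicate block. The neutrophil sum was 27765 to 225304 FPKM in grafted nerve and 52.2 to 17802 FPKM in grafted cord libraries, and its part in these differences was not tested. With a term for the neutrophil score 0 members were called with a G93A donor at either stage (at end stage 0.827% of all genes higher, 0.516% lower). With a WT donor 1 was called at end stage (Relb, lower), beside 0.827% of all genes higher and 1.47% lower. The score went largely with tissue here too. Relative to the myeloid genes Nfkbia, Nfkb1 and Tnfrsf1a were called higher at end stage with either donor (39.6% and 41% of all genes higher). With a WT donor Relb was called lower.

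**Figure D5:**
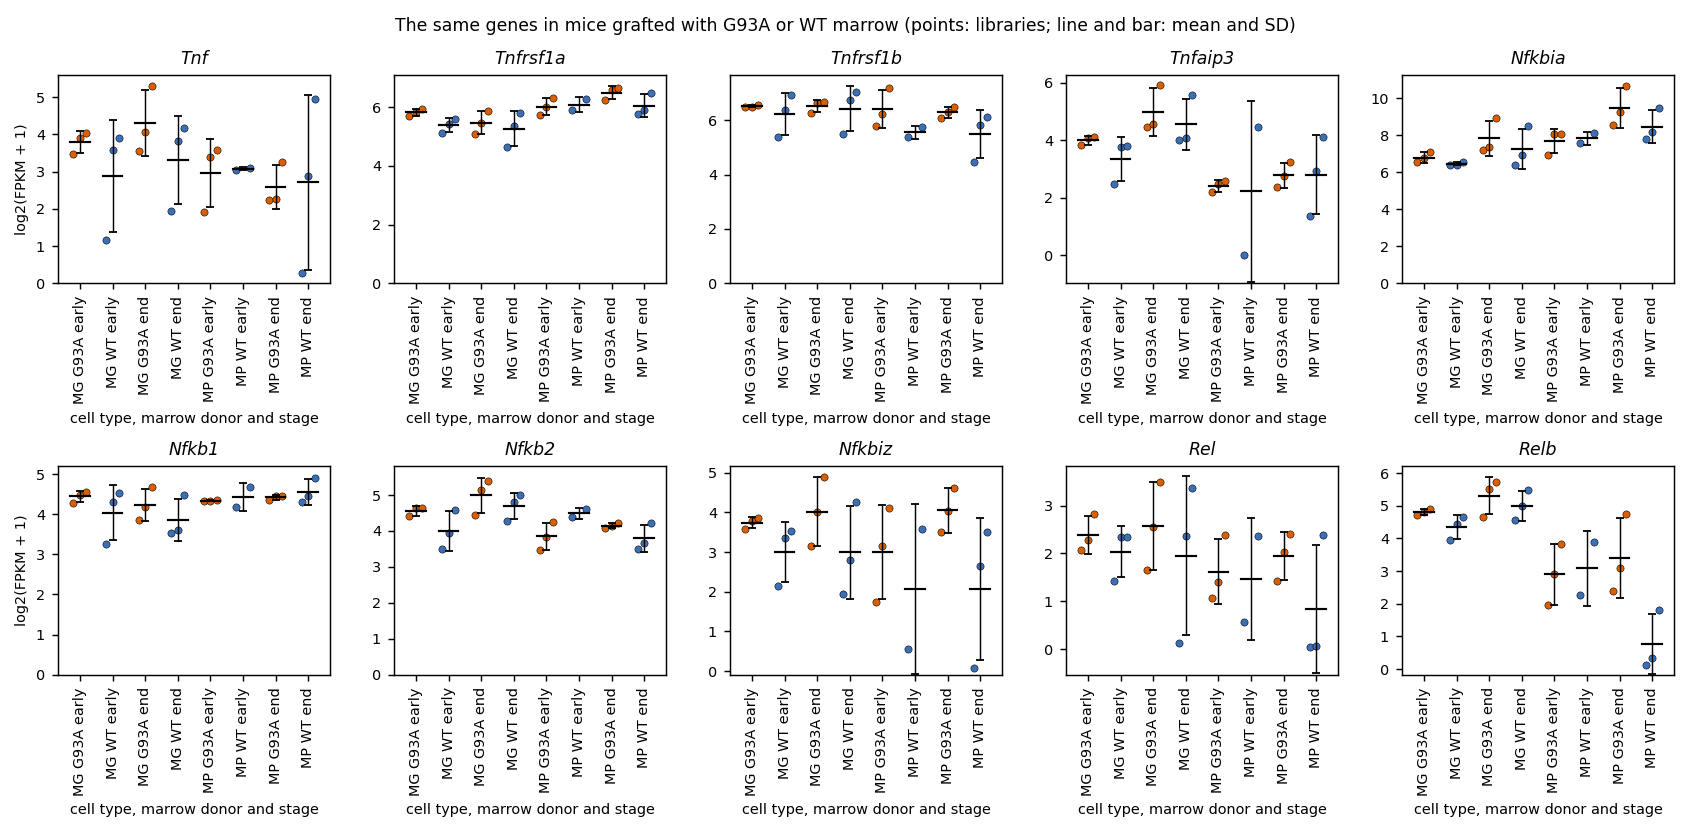
Level of each gene, as log2(FPKM + 1), in grafted cord (MG) and nerve (MP) libraries by marrow donor and stage, with each point 1 library and bars for the mean and SD. Nfkbia is spread from 81.52 to 478.32 FPKM in cord and from 121.29 to 1583.39 FPKM in nerve, and Relb in nerve with a WT donor at end stage is at 0.08 to 2.49 FPKM.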

How the data were processed

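The data are RNA sequencing of CD11b-bead-selected cells from spinal cord and sciatic nerve, in 74 libraries and 21 groups set by the labels. Cells were isolated in the cold without enzymatic digestion, per the labels' protocols. The authors deposited 2 tables of FPKM, 1 for non-grafted and 1 for grafted libraries, written with decimal commas, per the file headers. Tools listed in the submitters' processing notes, without their roles, are DESeq2, R 3.2.5, SAMtools, Picard and FastQC, and the build is mm10. Neither the aligner nor the counting step is stated there. Labels conflict for 4 nerve libraries (description WT, strain and title G93A), which were grouped by the description.

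Each table was analysed on its own. A library's FPKM summed to between 484604 and 618562 (cord, not grafted), 625386 and 986659 (nerve, not grafted), 483480 and 572765 (cord, grafted) or 615421 and 755253 (nerve, grafted). The depth is unknown, and counting intervals cannot be given. Genes with a symbol and a mean of at least 1 FPKM over the libraries of a fit were tested with limma 3.58.1 (R 4.3.3) on log2(FPKM + 1), with a mean-variance trend and Benjamini-Hochberg adjustment over all genes tested. A gene was called at an adjusted p under 0.05. Separate fits held the 33 cord, 18 nerve and all 51 non-grafted libraries, and the 12 cord, 11 nerve and all 23 grafted libraries. Receptor ratios were compared with exact two-sided permutation tests. The scripts were tested on simulated data.

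The 10 genes, the pathway and marker lists and the tests were chosen with earlier results of these data known. All 10 genes are named. Of each pathway list up to 3 called genes with the largest difference are named, and for likeness the 3 genes with the highest Pearson's r per member, or fewer; 1 gene that this rule picks is not reported here. Tnfsf12, Jun, Junb, Jund and Hbb-bs of the lists were not analysed here. Replicate numbers were taken as pairs only where every same-numbered pair deviated together (r over 0.1). This held for grafted nerve against cord libraries with a G93A donor at end stage (0.14 to 0.32), where the fit with the replicate block also called 4 members. Alternatives were a pseudocount of 0.1, no filter, median-ratio scaling, only the groups compared, the replicate block, library quality weights, terms for marker scores and leaving out each library. Values relative to Itgam, Ptprc, Csf1r and Aif1, and a fit without cord libraries over 10000 FPKM of S100a8, were added after seeing the data, as were the counts of the pathway lists with marker terms and on the relative scale.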

Additional observations from a re-analysis of the deposited data

Results flagged for a closer look

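In 110 sets of 4 or 5 libraries, chance would place about 1 in 20 with a library far from the rest, and 8 were seen. WT replicate 3 of the age of end stage was low for Tnfrsf1a (22.86 FPKM), Tnfaip3 (3.62 FPKM), Nfkb1 (11.92 FPKM) and Nfkb2 (3.85 FPKM), and its oligodendrocyte sum of 23347 FPKM was the highest of its group. End-stage G93A replicate 4 was low for Tnfaip3 (8.87 FPKM) and Rel (2.29 FPKM), and had the neutrophil sum of 52177 FPKM. Nfkb2 was high in early symptomatic replicate 2 (17.68 FPKM), which had the lowest oligodendrocyte sum of its group (1817 FPKM), and in B6 replicate 3 of the age of onset (3.59 FPKM). The part of these marker values in the outlying levels was not tested.

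The change from before symptoms to end stage differed between nerve and cord libraries by the test of the difference itself for Nfkb2 (-2.25), Nfkbiz (-1.70) and Relb (-2.77), nerve minus cord on the log2(FPKM + 1) scale. Cord moved up and nerve did not pass in either direction.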

How the results depend on the processing

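Of 5908 values of single members recomputed under an alternative, 5483 stayed on their side of the threshold with no called value changing sign, 246 lost a call, 44 changed sign while called in one of the fits, and the rest gained a call. Library quality weights, which ranged from 0.0643 to 11.5 over the cord libraries, gave the most calls: 10 at onset and 10 in early symptoms against before symptoms, 7 at onset and 4 at end stage against WT, and 1 between donors in grafted cord libraries in early symptoms. Calls were common there among all genes too. In that order 8934, 8357, 7935 and 5714 of 11750 genes were called, and 4978 of 11143 between donors. Terms for marker scores gave 0 (onset), 2 (early) and 1 (end) against before symptoms, 0 at onset and 1 at end stage against WT, 2 against B6 at end stage, and 0 before symptoms and 1 at end stage for nerve against cord. In that order these fits called 1, 1752, 1806, 6, 2048 and 3135 of 11750 genes, and 1222 and 1571 of 11773. Relative to the myeloid genes the counts against before symptoms were 0 (onset), 4 (early) and 2 (end), and 4 at onset and 1 at end stage against B6, every one of these called lower. Of all genes 0%, 80.2%, 78.8%, 89.8% and 47.1% were called lower there, in that order. The counts of members on that scale were 0 at onset against WT, and for nerve against cord 2 before symptoms (1 higher, 1 lower) and 5 at end stage (all higher). For nerve against cord, 8.09% of all genes were higher and 37.4% lower before symptoms, and 27.4% higher and 2.96% lower at end stage. The counts at onset, against both before symptoms and WT, were 0 with no filter, the replicate block, only the groups compared, and without the libraries high in S100a8, and 0 against WT with median-ratio scaling. Nerve against cord at end stage gave 1 with a pseudocount of 0.1 (4896 of 11773 genes called) and 1 with no filter (4619 of 23110). Leaving out 1 library at a time, against before symptoms, gave 0 to 8 calls (onset), 2 to 7 (early) and 7 to 9 (end), 0 to 4 at onset against WT, 5 to 8 at end stage against B6, and for nerve against cord 4 to 5 (pre-symptomatic) and 0 to 3 (end).

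Only sign changes with a call in either of the fits compared are listed here, and their cause was not tested. Signs changed so relative to the myeloid genes as follows. At onset against before symptoms these were Tnf (-0.04) and Nfkb2 (-0.01), while 9 of the 10 members lay below 0 there, called or not. In early symptoms they were Tnfrsf1a (-0.20), Tnfrsf1b (-0.55), Tnfaip3 (-0.02), Nfkbia (-1.21), Nfkb1 (-0.93), Nfkb2 (-0.11), Nfkbiz (-0.50), Rel (-1.54) and Relb (-0.41). At end stage they were Tnfrsf1b (-0.36), Nfkbia (-0.71), Nfkb1 (-0.92), Nfkbiz (-0.25), Rel (-1.39) and Relb (-0.26). Against B6 they were, at onset, Tnf (-0.49), Tnfrsf1a (-0.52), Tnfrsf1b (-0.05), Tnfaip3 (-0.47), Nfkbia (-1.74), Nfkb1 (-0.88), Nfkb2 (-0.51), Nfkbiz (-0.44), Rel (-1.30) and Relb (-0.90), and at end stage Tnfrsf1a (-0.05), Nfkb1 (-1.02) and Nfkbiz (-0.02). For nerve against cord at end stage they were Tnfrsf1b (0.80) and Nfkb1 (1.17), for the change between stages Nfkbia (1.60), Nfkb1 (1.51), Nfkb2 (0.01), Nfkbiz (0.56) and Rel (2.08), and for grafted libraries with a WT donor at end stage Nfkb2 (0.74). With terms for marker scores, signs changed for Tnf at onset (-0.02) and Tnfrsf1b at end stage (-0.32) against before symptoms, and for nerve against cord for Tnfrsf1a at onset (-0.14) and in early symptoms (-0.48) and Nfkbia at end stage (-0.04). Called or not, 8 members lay below 0 at onset and 3 at end stage against before symptoms with those terms. With library quality weights the sign changed for Tnfrsf1b between donors in grafted cord in early symptoms (0.43).

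Replicate numbers otherwise share only a number, with same-numbered libraries of pre-symptomatic and end-stage cord deviating together at r from -0.33 to 0.26, and the block moved, beside the onset counts above, those against B6 to 5 at onset and 7 at end stage, of nerve against cord at onset to 2, and of grafted nerve against cord with a WT donor at end stage to 1. Depth is unknown, and genes near 0 FPKM in nerve libraries limit what can be seen there.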
